A study of Mus musculus with 15 samples.

Results

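The genes described here are the ligands, receptors and antagonists of the WNT pathway and the proteins that relay its signal, as listed in an RNA-seq table of mouse embryonic fibroblasts. They were taken by symbol, as every listed gene whose name starts with Wnt, Fzd, Sfrp, Dkk or Rspo followed by a digit, or with Tcf7, and as Lgr4 to Lgr6, Axin1, Axin2, Lrp5, Lrp6, Lef1, Ror1, Ror2, Nkd1, Nkd2, Wif1, Rnf43 and Znrf3. The rule also asked for Notum and further family members, and found 45 genes among the 14091 listed features. These were 10 WNT ligands, 10 Frizzled receptors, 4 co-receptors, 6 secreted antagonists, 8 genes of the R-spondin axis and 7 intracellular genes. The study set 3 groups of 5 libraries side by side, all from cells of the ICR mouse strain. The MEF group holds fibroblasts labelled as the control. The MGT group holds fibroblasts 1 week after retroviral transduction with MGT, which stands for the cardiac transcription factors Mef2c, Gata4 and Tbx5. The MΔGΔT group, whose libraries carry the name Mutant, holds fibroblasts 1 week after transduction with the factor set labelled MΔGΔT. The labels do not define the Δ, do not say whether MEF received an empty virus, and name no group with a vector alone, so the factors and the transduction itself cannot be told apart in a comparison with MEF. Fibroblast cultures of this kind are mixed, and the labels do not say how many embryos gave the cells, or whether the 5 libraries of a group came from separate cultures. All p-values therefore measure the spread between these libraries, which may be technical.

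WNT proteins are secreted, lipid-bearing ligands that bind Frizzled receptors. Together with the co-receptors Lrp5 and Lrp6 they stop the degradation of beta-catenin, which then works with Tcf/Lef factors in the nucleus, whereas with Ror1 and Ror2 they act on cell polarity and migration without beta-catenin. Sfrp proteins and Wif1 bind the ligands outside the cell, and Dkk2 binds Lrp5 and Lrp6. R-spondins acting through Lgr receptors keep the ubiquitin ligases Rnf43 and Znrf3 from removing Frizzled receptors from the membrane. In the embryo the pathway is needed to form cardiac mesoderm and is later restrained for heart muscle to differentiate.

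The total count per library lay between 8.213 and 11.128 mega-counts. The 3 factors were present as the labels say, and Mef2c ranged over 57.8 to 60.8 CPM (counts per mega-count of the scaled library) among MEF libraries, 533 to 637 CPM with MGT and 591 to 647 CPM with MΔGΔT. Gata4 stood at 1.92 to 3.13, 138 to 168 and 187 to 196 CPM, and Tbx5 at 3.74 to 5.36, 117 to 137 and 169 to 181 CPM. Counts over these genes cannot separate transcripts of the virus from those of the cell. Fibroblast markers were abundant in the MEF libraries, at a summed 59760 to 68850 CPM over 21 listed genes, and were lower in both transduced groups, at 33160 to 34570 CPM in MGT and 28650 to 30900 CPM in MΔGΔT. The 19 listed macrophage markers summed to 2927 to 3789 CPM in MEF, 220.8 to 395.8 CPM in MGT and 273.4 to 402 CPM in MΔGΔT, and every one of them fell in both groups against MEF. Cardiac muscle markers summed to 8.51 to 9.26 CPM in MEF, where Myh7 and Sln were at 0, to 1465 to 1651 CPM in MGT and to 12190 to 13630 CPM in MΔGΔT. Smooth muscle markers summed to 1253 to 1354, 2503 to 2733 and 5941 to 6339 CPM in the same order. In bulk RNA a lower level can come from fewer cells of a type or from less RNA per cell, and these cannot be told apart here.

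Promoter sequence is shown first for 4 genes that the results turn on, namely the 3 genes by which this gene set was marked (Axin2, Dkk2 and Sfrp2) and the antagonist Wif1, and for the 2 genes whose promoter window held the core motif of Tcf/Lef factors, Fzd7 and Wnt11. The windows are RefSeq promoters on GRCm38.p6, from 250 bases before to 50 bases after the annotated start, and were found for 30 of the 45 genes. For 5 of these more than 1 window was listed, and only the first of each gene was searched, here and over all genes. Printed are the 250 bases before the start, 5′ to 3′ on the plus strand, which is the strand of all 6 genes. Axin2 lies at chr11:108920099-108920348, Dkk2 at chr3:132085042-132085291, Sfrp2 at chr3:83766071-83766320, Wif1 at chr10:121033754-121034003, Fzd7 at chr1:59481897-59482146 and Wnt11 at chr7:98834862-98835111. The GENCODE gene coordinates used below do not always share these starts. By them Wif1 starts at 121033960, inside its block, and Fzd7 at 59482424, beyond the end of its block. Distances to the start given here are to that of the promoter window. Capitals mark the reverse complement of a Tcf/Lef core.
Axin2: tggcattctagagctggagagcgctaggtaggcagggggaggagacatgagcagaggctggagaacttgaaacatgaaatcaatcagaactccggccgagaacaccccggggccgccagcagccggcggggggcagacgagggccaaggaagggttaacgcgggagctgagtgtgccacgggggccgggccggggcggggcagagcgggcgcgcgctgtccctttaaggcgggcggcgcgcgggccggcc
Dkk2: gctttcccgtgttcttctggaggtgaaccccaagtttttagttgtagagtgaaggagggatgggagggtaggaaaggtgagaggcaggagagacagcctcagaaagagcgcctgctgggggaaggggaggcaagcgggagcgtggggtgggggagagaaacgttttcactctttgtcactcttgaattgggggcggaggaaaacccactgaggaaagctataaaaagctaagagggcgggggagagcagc
Sfrp2: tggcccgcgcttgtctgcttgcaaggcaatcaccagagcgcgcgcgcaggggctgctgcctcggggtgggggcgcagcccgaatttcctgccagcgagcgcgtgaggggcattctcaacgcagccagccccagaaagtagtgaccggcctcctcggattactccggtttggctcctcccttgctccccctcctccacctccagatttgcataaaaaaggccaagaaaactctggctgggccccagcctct
Wif1: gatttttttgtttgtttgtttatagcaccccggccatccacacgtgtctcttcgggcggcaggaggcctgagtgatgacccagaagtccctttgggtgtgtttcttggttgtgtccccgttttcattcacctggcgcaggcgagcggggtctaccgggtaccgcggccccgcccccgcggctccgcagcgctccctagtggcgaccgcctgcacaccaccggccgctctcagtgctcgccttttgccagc
Fzd7: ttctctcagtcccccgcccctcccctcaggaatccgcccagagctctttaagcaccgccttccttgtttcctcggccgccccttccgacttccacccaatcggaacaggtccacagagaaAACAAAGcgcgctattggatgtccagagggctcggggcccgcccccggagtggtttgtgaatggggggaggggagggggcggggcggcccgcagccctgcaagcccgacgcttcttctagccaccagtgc
Wnt11: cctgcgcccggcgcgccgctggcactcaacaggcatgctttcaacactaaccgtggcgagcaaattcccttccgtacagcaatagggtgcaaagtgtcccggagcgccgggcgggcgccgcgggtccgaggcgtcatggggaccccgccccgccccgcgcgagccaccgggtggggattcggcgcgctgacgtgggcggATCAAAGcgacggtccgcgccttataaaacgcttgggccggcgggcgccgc
The Tcf/Lef core was searched as CTTTGAT, as the related form CTTTGAA and as the further form CTTTGTT on both strands, and 2 of the 30 windows held it, against 13.9% of the 27025 mouse promoter windows of the same length. In Fzd7 the match began 130 bases before the start and in Wnt11 51 bases before it, both on the minus strand. With a C directly before CTTTGAT or before the form CTTTGAA, 0 of the 30 windows matched, against 2.53% of all windows. The GATA motif AGATAA, or its variant form TGATAA, the site bound by Gata4, was in the windows of Fzd1 and Wnt2 alone, against 19% of all windows, and the MEF2 motif was in 0 of the 30, against 0.566% of all. The median GC content was 69.5% in the 30 windows and 52.7% over all windows. A match in these letters is a description of the sequence, and the absence of one covers only this window.

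Of the 45 genes, 41 had enough counts to be tested, and most of them differed between the groups. A gene is called higher or lower, or said to have risen or fallen, at an adjusted p under 0.05 in edgeR's quasi-likelihood F-test with Benjamini-Hochberg adjustment over all 13328 tested features, and every adjusted p below is from that test unless another is named. In MGT against MEF, 14 of the 41 rose and 19 fell. The background was high, since 61.2% of all tested features were called in this comparison, 30.9% higher and 30.3% lower, and 80.5% of the WNT genes were. In MΔGΔT against MEF, 10 rose and 25 fell, which is 85.4% of the 41, beside 72.3% of all tested features, 36.2% of them higher and 36.1% lower. In MΔGΔT against MGT, 8 rose and 23 fell, which is 75.6%, beside 58.2% of all features, with 30.4% higher and 27.8% lower. The 23 include Rspo1, which had enough counts only through its MEF libraries and whose difference here is not read below. A fit of these 2 groups alone, which left out Rspo1 and called Fzd3, also gave 8 and 23. The 5 libraries of the 2 groups did not overlap for 29, 32 and 26 of the 41 genes in the 3 comparisons, where 45.8%, 58.5% and 45.3% of all tested features had no overlap.

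The changes were also larger in size than over all features. These genes were chosen with earlier results of these data known, so their excess in calls and in size is not independent of that choice. The median absolute log2 fold change was 0.71 for the WNT genes and 0.26 for all features in MGT against MEF, 0.93 and 0.38 in MΔGΔT against MEF, and 0.43 and 0.24 in MΔGΔT against MGT. At least a 2-fold difference was found for 14 of the 41 in the first comparison, which is 34.1% beside 16.3% of all features. It was found for 19 in the second, 46.3% beside 22.9%, and for 10 in the third, 24.4% beside 10%. The 10 also include Rspo1. The signed medians were -0.051, -0.49 and -0.22 for the WNT genes, and 0.0039, -0.0057 and 0.0098 for all features. The direction of small changes depends on how the libraries are scaled. With the library totals that the deposited RPKM values imply, the median of all features moved by -0.24 in MΔGΔT against MEF and by -0.26 in MΔGΔT against MGT. Over all features the split in the latter then went from 4056 higher and 3706 lower to 1873 and 7278, and that in MΔGΔT against MEF from 4820 and 4818 to 2928 and 7158. With plain library totals it was 2436 and 6199 in MΔGΔT against MGT, and in MGT against MEF it went from 4120 and 4040 to 5183 and 3275. Among the 41 WNT genes the counts with the RPKM totals were 7 higher and 28 lower in MΔGΔT against MEF and 6 and 28 in MΔGΔT against MGT. Against MEF, 18 genes fell in both transduced groups and 8 rose in both, and 5 went in opposite directions. The shares of all features with these joint patterns were not counted, so these counts have no background beside them.

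**Figure D1:**
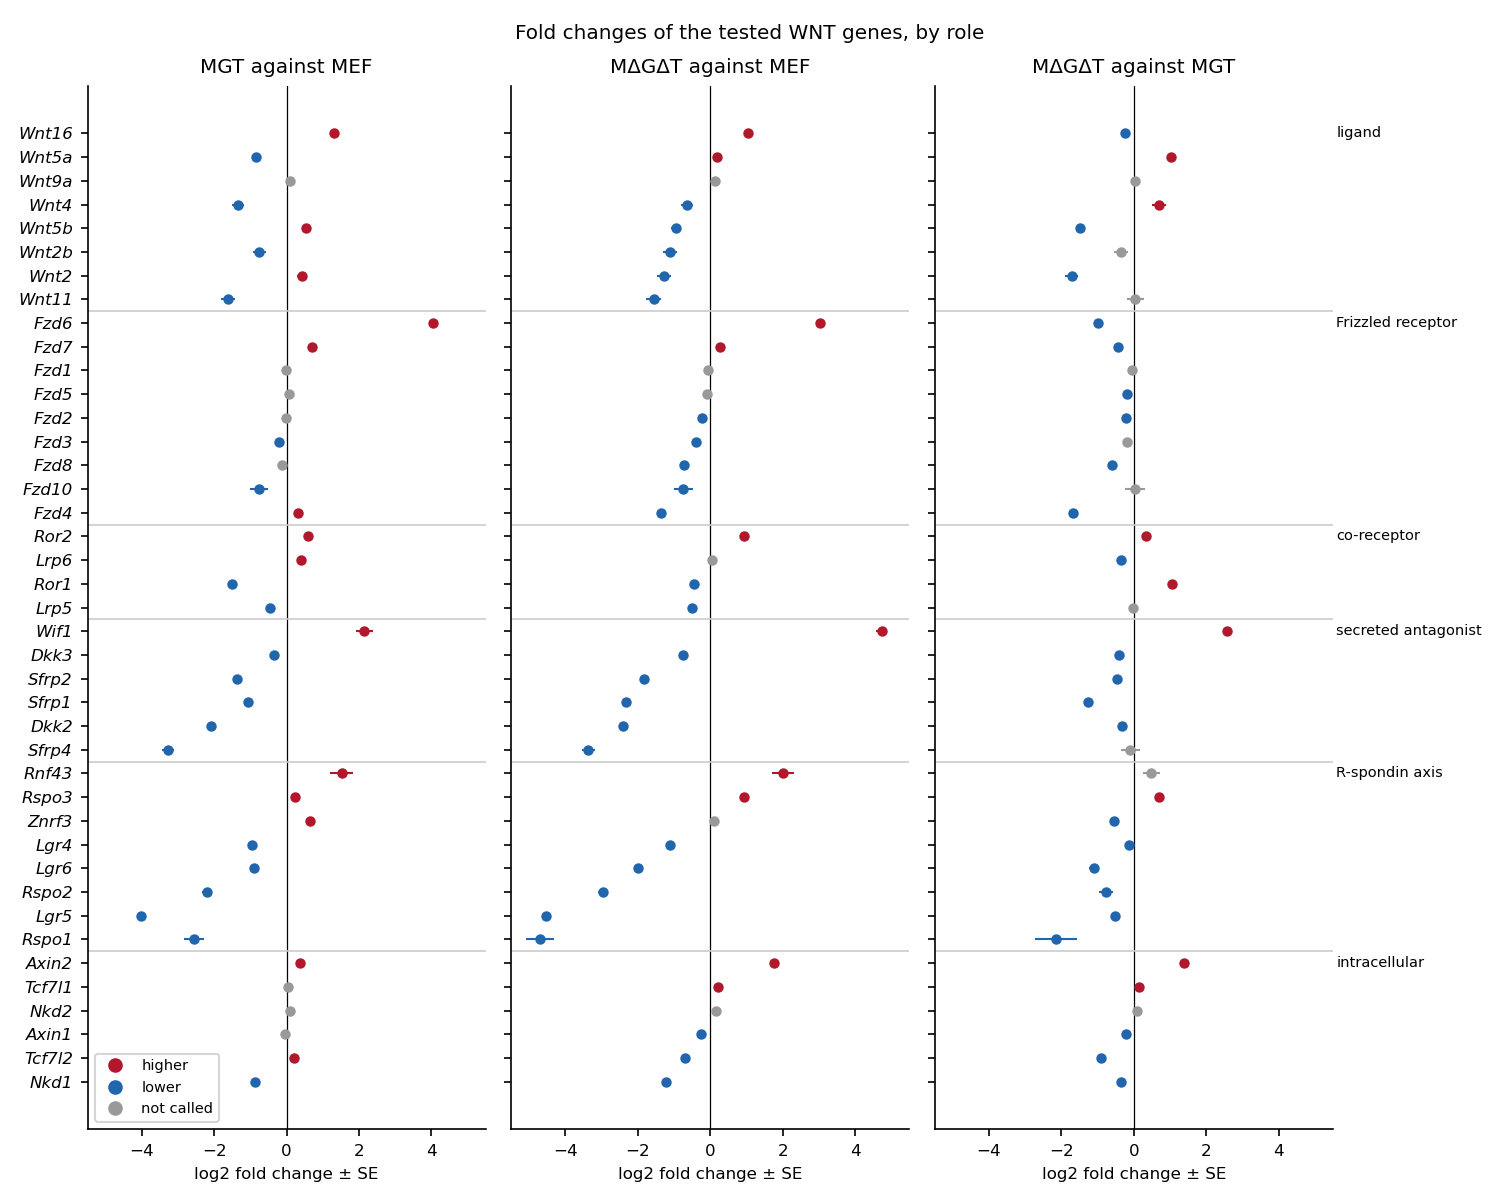
Log2 fold change, with its standard error as the bar, of each of the 41 tested WNT genes in the 3 comparisons, ordered by role, with genes called higher in red, called lower in blue and not called in grey. Against MEF, Lgr5, Sfrp4, Rspo1, Rspo2 and Dkk2 lie far to the left and Wif1 and Fzd6 far to the right in both transduced groups, and Wnt5a, Wnt5b, Wnt2, Fzd4 and Tcf7l2 are on opposite sides of 0 in the first and second panels.

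The secreted antagonists split into 5 that fell in both transduced groups, Sfrp1, Sfrp2, Sfrp4, Dkk2 and Dkk3, and 1 that rose in both, Wif1. This count of 1 higher and 5 lower was the same under each of the 5 library scalings. All 6 were thus called against MEF in both groups, beside 61.2% and 72.3% of all features. Sfrp1 (chr8:23411502-23449632, mm10), a decoy that shares the ligand-binding fold of Frizzled receptors, stood at 254, 235, 248, 264 and 247 CPM in the 5 MEF libraries, at 124, 125, 109, 122 and 115 CPM in MGT and at 54.3, 53.5, 44.2, 43.3 and 52.9 CPM in MΔGΔT. The 3 groups did not overlap, with MEF highest and MΔGΔT lowest. Its log2 fold change was -1.07 ± 0.0494 (SE, adjusted p = 5.0e-19) in MGT against MEF and -2.33 ± 0.0547 (SE, adjusted p = 1.7e-27) in MΔGΔT against MEF. Between the transduced groups it fell by a further 1.26 ± 0.0559 (SE, adjusted p = 3.3e-19), the largest fall of the 6 antagonists in that comparison.

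Sfrp2 (chr3:83766321-83774316), a close relative that is a known product of mesenchymal cells, stood at 244, 251, 227, 241 and 235 CPM in MEF, at 97.8, 95.8, 86.4, 95 and 89.4 CPM in MGT and at 66.2, 68.8, 69, 60.7 and 73.6 CPM in MΔGΔT. Every MEF library was above every transduced one, and every MGT library above every MΔGΔT one. The log2 fold changes were -1.37 ± 0.0432 (SE, adjusted p = 6.7e-27) for MGT and -1.82 ± 0.0451 (SE, adjusted p = 7.5e-31) for MΔGΔT, and -0.46 ± 0.0469 (SE, adjusted p = 5.9e-11) between them. Sfrp4 (chr13:19623104-19632994), the least abundant of the 3 Sfrp genes here, went from 15.1, 13.5, 14, 18.5 and 14.4 CPM in MEF to 1.53, 1.35, 2.21, 1.36 and 1.22 CPM in MGT and 1.67, 2.12, 1.24, 0.505 and 1.74 CPM in MΔGΔT. Its fall was the steepest of the antagonists, by 3.27 ± 0.162 (SE, adjusted p = 2.5e-20) on the log2 scale in MGT and by 3.37 ± 0.171 (SE, adjusted p = 3.1e-20) in MΔGΔT. The transduced groups overlapped, with a difference of -0.092 ± 0.264 (SE, adjusted p = 0.786).

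Dkk2 (chr3:132085292-132180304), which binds Lrp5 and Lrp6 and can block or, in some settings, aid them, stood at 86.9, 89.5, 95.5, 85.6 and 87.1 CPM in MEF, at 23.6, 23.8, 18.8, 20.6 and 17.6 CPM in MGT and at 18.2, 15.1, 16.1, 15.7 and 18.2 CPM in MΔGΔT. All 10 transduced libraries were far below the 5 MEF libraries, while the highest MΔGΔT libraries reached into the MGT range. On the log2 scale the changes were -2.09 ± 0.0634 (SE, adjusted p = 1.9e-27), -2.42 ± 0.0676 (SE, adjusted p = 4.8e-29) and, between the transduced groups, -0.33 ± 0.0803 (SE, adjusted p = 5.0e-04). Dkk3 (chr7:112116017-112159057), a divergent member of the family, fell less, from 225 ± 3.6 CPM (SD, n = 5) in MEF to 178 ± 5.78 CPM in MGT and 134 ± 5.77 CPM in MΔGΔT. It was placed among the antagonists by its symbol alone, and what is said of Dkk2 and Lrp5 or Lrp6 does not extend to it. Its log2 fold changes were -0.34 ± 0.0364 (SE, adjusted p = 1.7e-10) and -0.75 ± 0.0373 (SE, adjusted p = 1.2e-20). Per gene length, Dkk2 made up 26.4% ± 0.875 (SD, n = 5) of the summed RPKM of the 2 Dkk genes in MEF, and 9.6% ± 1.12 and 10.1% ± 0.451 in MGT and MΔGΔT, so Dkk3 was the main one in each group.

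Wif1 (chr10:121033960-121100650), which binds WNT ligands directly, moved the other way. It was near the limit of detection in MEF, at 1.11, 0.862, 0.56, 0.845 and 0.335 CPM, or 11, 9, 5, 7 and 3 counts, rose to 3.22, 3.86, 2.83, 3.15 and 3.98 CPM in MGT and to 20.1, 21.9, 20.8, 21.3 and 17.5 CPM in MΔGΔT. The groups did not overlap at any step. The fitted log2 fold changes were 2.15 ± 0.229 (SE, adjusted p = 1.2e-10) in MGT, 4.73 ± 0.16 (SE, adjusted p = 3.1e-26) in MΔGΔT and 2.59 ± 0.113 (SE, adjusted p = 5.6e-22) between them. In RPKM, Wif1 was 0.105% ± 0.0432 (SD, n = 5) of the summed level of the 6 antagonists in MEF, 1.01% ± 0.154 in MGT and 8.21% ± 0.989 in MΔGΔT. Over the same sum, Sfrp2 had the largest share in MEF, with 45.6% ± 0.981, and 36.6% ± 0.66 and 36.6% ± 1.51 in MGT and MΔGΔT. Dkk3 went from 23.2% ± 0.592 in MEF to 38.2% ± 1.14 and 38.9% ± 1.17, the largest mean share in both transduced groups, although its libraries overlapped those of Sfrp2 in range. Sfrp1 went from 19.8% ± 0.692 and 19.5% ± 0.46 to 11.1% ± 0.816. The fall of the 5 Sfrp and Dkk genes went along with that of the fibroblast markers, of which 19 of 20 tested fell in MGT and 17 of 20 in MΔGΔT, and with that of the 19 macrophage markers. The rise of Wif1 went along with that of the cardiac markers, 15 of 16 of which rose in MGT and 16 of 16 in MΔGΔT. Of all features, 30.3% fell and 30.9% rose in MGT, and 36.1% fell and 36.2% rose in MΔGΔT. The part of cell composition in the changes of these antagonists was not tested.

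**Figure D2:**
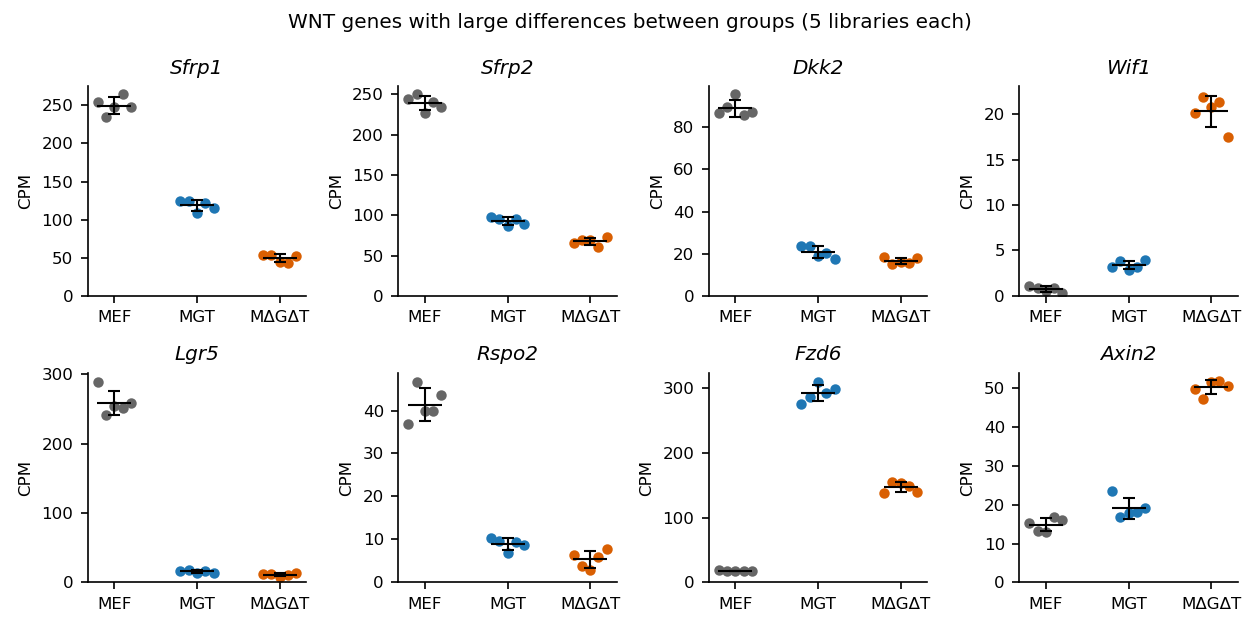
CPM, on linear axes that start at 0, of 8 WNT genes in each of the 15 libraries, with 1 point per library and the mean and SD of each group of 5 as lines. Fzd6 is highest in MGT and Axin2 in MΔGΔT, while Sfrp1, Sfrp2, Dkk2, Lgr5 and Rspo2 step down from MEF to the transduced groups and Wif1 steps up from near 0 in MEF to 17.5 CPM or more in MΔGΔT.

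Of the 10 WNT ligands listed, 8 could be tested. In MGT 3 rose (Wnt16, Wnt5b and Wnt2) and 4 fell (Wnt5a, Wnt4, Wnt11 and Wnt2b) against MEF. In MΔGΔT 2 rose (Wnt16 and Wnt5a) and 5 fell (Wnt2, Wnt5b, Wnt4, Wnt11 and Wnt2b), and with RPKM totals Wnt5a was no longer called. In each of these comparisons 1 of the 8 was not called, while 61.2% and 72.3% of all features were called. Wnt5a (chr14:28504750-28527448), the main ligand of the branch that does not use beta-catenin, was the most abundant ligand per gene length in MEF and MΔGΔT. It stood at 163, 163, 157, 159 and 169.9 CPM in MEF, at 90.2, 95.5, 86.4, 86 and 95.1 CPM in MGT and at 185, 187, 188, 187 and 184 CPM in MΔGΔT. MGT lay below both other groups in every library, and MΔGΔT lay above MEF in every library. The log2 fold change was -0.84 ± 0.0388 (SE, adjusted p = 1.5e-21) in MGT and 1.04 ± 0.0385 (SE, adjusted p = 2.4e-24) in MΔGΔT against MGT. The rise over MEF in MΔGΔT was small, 0.20 ± 0.0373 (SE, adjusted p = 1.2e-05), and turned to -0.04 (adjusted p = 0.456) with RPKM totals.

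Wnt16 (chr6:22288227-22298522), a ligand known from bone and joint tissue, rose in both groups, from 16.9, 25.7, 23.2, 19.7 and 23.9 CPM in MEF to 52.9, 54.6, 56.2, 50.2 and 55.2 CPM in MGT and 44, 49, 48, 41.8 and 43.2 CPM in MΔGΔT. Both transduced groups lay wholly above MEF, and MGT lay above MΔGΔT. Fold changes on the log2 scale were 1.30 ± 0.0734 (SE, adjusted p = 2.5e-17), 1.05 ± 0.0761 (SE, adjusted p = 1.6e-14) and -0.25 ± 0.0654 (SE, adjusted p = 0.0014). In shares of the summed RPKM of the 10 ligands, Wnt5a went from 52.6% ± 1.28 (SD, n = 5) in MEF to 31.3% ± 0.95 in MGT and 54.5% ± 1.42 in MΔGΔT, and Wnt16 from 12.7% ± 1.97 to 33.3% ± 0.752 and 23.7% ± 1.06. Wnt16 and Wnt5a were thus near-equal shares of ligand transcript in MGT, where no library had a Wnt5a share above its Wnt16 share. Wnt9a, active in joints and heart valves, made up 11.9% ± 1.28, 13.6% ± 1.05 and 11.8% ± 1.03. It was not called in any comparison, at log2 0.096 ± 0.0894 (SE, adjusted p = 0.365), 0.14 ± 0.091 (SE, adjusted p = 0.167) and 0.044 ± 0.0874 (SE, adjusted p = 0.688) in the order used above.

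Wnt5b (chr6:119432531-119544347), the paralog of Wnt5a, changed in the reverse order. It stood at 6.47, 7.19, 5.48, 7.49 and 6.25 CPM in MEF, at 10.2, 9.74, 9.55, 9.01 and 8.97 CPM in MGT and at 3.89, 3.93, 3.19, 2.32 and 3.81 CPM in MΔGΔT, with no overlap between any 2 groups. Its log2 differences were 0.53 ± 0.113 (SE, adjusted p = 9.6e-05) in MGT, -0.94 ± 0.141 (SE, adjusted p = 2.0e-07) in MΔGΔT and -1.47 ± 0.129 (SE, adjusted p = 8.9e-13) between them. Wnt5b overlaps the gene Fbxl14 on the other strand, and whether counting used strand is not given in the sources used here. Wnt2 (chr6:17988940-18030585), a ligand of the beta-catenin branch made by heart and lung mesenchyme, showed the same order at a lower level, with 4.14, 3.45, 4.92, 3.98 and 5.36 CPM in MEF, 5.59, 6.36, 5.75, 5.7 and 5.81 CPM in MGT and 1.44, 1.81, 2.27, 2.43 and 0.871 CPM in MΔGΔT. MGT libraries lay just above the highest MEF library, and MΔGΔT libraries lay below all others. The fold changes were 0.42 ± 0.15 (SE, adjusted p = 0.0141), -1.28 ± 0.195 (SE, adjusted p = 2.5e-07) and -1.71 ± 0.179 (SE, adjusted p = 1.2e-10) on the log2 scale, and without MEF replicate 2 the rise in MGT was 0.33 with an adjusted p of 0.068.

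Wnt4 (chr4:137277489-137299726), known from kidney and gonad development, and Wnt11 (chr7:98835112-98855195), known from heart morphogenesis, were low and fell in both groups. Wnt4 stood at 5.86, 4.31, 4.48, 5.8 and 6.25 CPM in MEF, at 2.71, 1.93, 2.03, 1.53 and 2.24 CPM in MGT and at 2.78, 3.33, 3.71, 4.35 and 2.83 CPM in MΔGΔT, so that MΔGΔT lay between the others and touched the MEF range. Its log2 fold changes were -1.34 ± 0.174 (SE, adjusted p = 1.2e-08), -0.64 ± 0.162 (SE, adjusted p = 6.4e-04) and 0.71 ± 0.189 (SE, adjusted p = 0.00153). Wnt11 stood at 3.84, 4.31, 6.16, 6.28 and 6.14 CPM in MEF, at 2.03, 2.12, 1.68, 1.87 and 0.815 CPM in MGT and at 1.44, 1.71, 2.57, 1.52 and 1.63 CPM in MΔGΔT. The transduced groups overlapped each other and lay below MEF, with log2 fold changes of -1.61 ± 0.198 (SE, adjusted p = 3.8e-09) and -1.56 ± 0.204 (SE, adjusted p = 9.8e-09). Wnt2b, a relative of Wnt2, fell from 4.67 ± 0.984 CPM (SD, n = 5) to 2.74 ± 0.544 CPM in MGT and 2.15 ± 0.446 CPM in MΔGΔT, by 0.75 (adjusted p = 2.5e-04) and 1.10 (adjusted p = 2.0e-06) on the log2 scale. Wnt6 and Wnt7a had too few counts to be tested. Wnt6 had 9, 8, 12, 8 and 6 counts in the MEF libraries, 3, 2, 1, 2 and 1 in MGT and 0, 2, 0, 3 and 0 in MΔGΔT, and Wnt7a had 6, 6, 6, 7 and 5, 8, 5, 4, 4 and 1 and 11, 13, 12, 9 and 9. The summed CPM of mesothelial and epithelial markers, cell types that make several of these ligands, was 34 to 43.6 in MEF, 41.7 to 51 in MGT and 122.6 to 149.3 in MΔGΔT, with 4 of 9 tested members higher and 5 lower in MGT and 4 and 4 in MΔGΔT. The called shares were 100% and 88.9%, beside 61.2% and 72.3% of all features. The part of these cell types in the ligand levels was not tested.

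**Figure D3:**
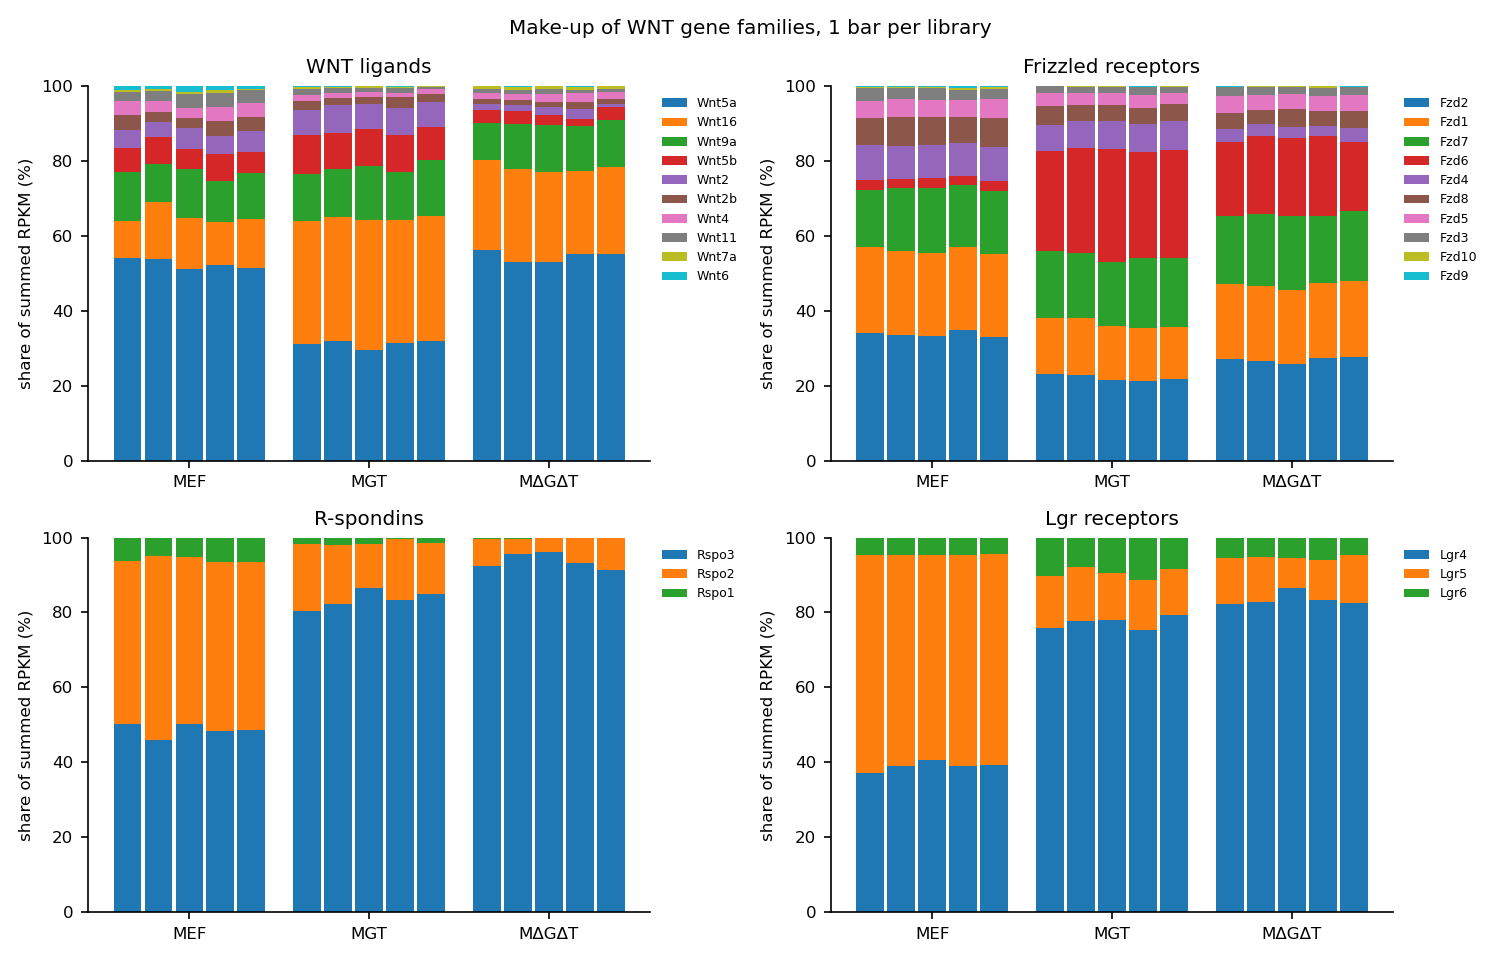
Share, in percent, of the summed RPKM of a gene family that each member takes, with 1 stacked bar per library for the WNT ligands, Frizzled receptors, R-spondins and Lgr receptors. Wnt16 takes about as much as Wnt5a in MGT, Fzd6 goes from a mean of 2.62% in MEF to 28.4% in MGT, Rspo3 is level with Rspo2 in MEF and the main R-spondin in both transduced groups, and Lgr4 takes the main share from Lgr5.

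Among the 9 Frizzled receptors tested, Fzd6 rose by far the most and most others changed little in MGT. Against MEF, 3 rose (Fzd6, Fzd7 and Fzd4) and 2 fell (Fzd3 and Fzd10) in MGT, a split that was 4 and 1 with plain library totals and 3 and 3 with upper-quartile factors. In MΔGΔT, 2 rose (Fzd6 and Fzd7) and 5 fell (Fzd2, Fzd3, Fzd4, Fzd8 and Fzd10), and with RPKM totals 1 rose and 7 fell, since Fzd7 was then at 0.042 (adjusted p = 0.517). Against MGT, 0 of the 9 were higher in MΔGΔT and 6 were lower, and none was higher under any of the 5 scalings. Those not called numbered 4, 2 and 3 of the 9, where 61.2%, 72.3% and 58.2% of all features were called. With the scaling used here the number of calls in this family was thus near the background, but it was larger under others. In MΔGΔT against MEF, 2 rose and 7 fell with plain library totals and with upper-quartile factors. Of all 13328 features, 9763 and 9734 were then called. In MΔGΔT against MGT, 8 of the 9 were lower with plain, upper-quartile and RPKM scaling, beside 8635, 7876 and 9151 features called. Fzd6 (chr15:39006034-39038188), a receptor of planar cell polarity, stood at 18.7, 17.7, 17.7, 17.6 and 17.3 CPM in MEF, at 275, 286, 309, 292 and 298 CPM in MGT and at 138, 155, 153, 149 and 139 CPM in MΔGΔT. MEF was lowest and MGT highest, with wide gaps. The fitted rise was 16.4-fold in MGT and 8.24-fold in MΔGΔT, which is 4.03 ± 0.0504 (SE, adjusted p = 1.9e-40) and 3.04 ± 0.0519 (SE, adjusted p = 2.4e-36) on the log2 scale. MΔGΔT was lower than MGT by 0.99 ± 0.039 (SE, adjusted p = 1.8e-23).

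Fzd4 (chr7:89404355-89413134), the receptor for Norrin as well as for WNT ligands, rose in MGT and fell in MΔGΔT. It stood at 100.3, 97.4, 93.8, 101 and 99.4 CPM in MEF, at 116, 121, 124, 124 and 129 CPM in MGT and at 41.3, 38.8, 35.5, 31.2 and 44.4 CPM in MΔGΔT. No 2 groups overlapped. The changes on the log2 scale came to 0.32 ± 0.0504 (SE, adjusted p = 9.7e-07), -1.37 ± 0.058 (SE, adjusted p = 1.6e-21) and -1.69 ± 0.0563 (SE, adjusted p = 4.1e-24). Fzd8 (chr18:9212163-9218136) stood at 39.7, 42.2, 40.9, 40.2 and 41.7 CPM in MEF, at 42.3, 36.5, 35.4, 35.7 and 37.5 CPM in MGT and at 24.3, 22.1, 28.7, 22.5 and 27.2 CPM in MΔGΔT. It was lower in MΔGΔT than in either other group without overlap, at -0.71 ± 0.0676 (SE, adjusted p = 3.6e-12) against MEF and -0.59 ± 0.067 (SE, adjusted p = 8.6e-10) against MGT, while MGT overlapped MEF at -0.13 ± 0.0624 (SE, adjusted p = 0.0768). The difference of MGT from MEF did pass the test with upper-quartile factors, at -0.15 (adjusted p = 0.033), and without MGT replicate 1, at -0.17 (adjusted p = 0.0183). Fzd10 (chr5:128600844-128604093) was rare, with 1.82, 1.44, 2.24, 2.54 and 3.01 CPM in MEF, 0.763, 1.16, 1.59, 1.36 and 1.53 CPM in MGT and 0.666, 1.21, 1.34, 2.02 and 1.2 CPM in MΔGΔT. Its libraries overlapped between the groups although its means fell, by 0.77 (adjusted p = 0.00835) and 0.74 (adjusted p = 0.0109).

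Fzd7, a receptor of the beta-catenin branch, rose from 123 ± 6.39 CPM (SD, n = 5) to 202 ± 7.56 CPM in MGT and 149.6 ± 9.54 CPM in MΔGΔT, at 0.71 ± 0.043 (SE, adjusted p = 9.3e-18) and 0.28 ± 0.0439 (SE, adjusted p = 4.7e-07). Fzd2 stood at 204 ± 10.8, 202 ± 7.01 and 174 ± 5.88 CPM and differed in MΔGΔT at -0.23 ± 0.0392 (SE, adjusted p = 2.3e-06). Fzd1 stood at 154 ± 4.33, 152 ± 5.83 and 148 ± 4.58 CPM and Fzd5 at 47 ± 2.39, 49.3 ± 3.58 and 43.8 ± 2.76 CPM, and neither was called against MEF. Under 3 other scalings both were called lower in MΔGΔT against MEF. Fzd1 and Fzd5 were at -0.29 and -0.33 with RPKM totals, -0.15 and -0.19 with plain library totals and -0.14 and -0.18 with upper-quartile factors. Fzd5 also passed without MΔGΔT replicate 5 (adjusted p = 0.0439). Fzd3, a polarity receptor of neurons, fell from 20.7 ± 1.78 CPM to 17.7 ± 1.46 CPM in MGT, at -0.22 ± 0.0773 (SE, adjusted p = 0.0115), and to 15.7 ± 1.31 CPM in MΔGΔT, at -0.40 ± 0.0808 (SE, adjusted p = 3.3e-05). The fall in MGT had an adjusted p of 0.0516 without MEF replicate 1 and of 0.0939 with plain library totals. Fzd9 was too low to be tested, with 8, 10, 7, 16 and 7 counts in MEF, 2, 7, 2, 11 and 3 in MGT and 7, 3, 4, 5 and 6 in MΔGΔT. Over the summed RPKM of the 10 receptors, Fzd2 and Fzd1 led in MEF with 33.8% ± 0.774 and 22.3% ± 0.374. Fzd6 went from 2.62% ± 0.116 in MEF to 28.4% ± 1.27 in MGT, where it was the first in order, and to 20.2% ± 1.05 in MΔGΔT, where Fzd2 led again with 26.9% ± 0.661. In MΔGΔT, Fzd6 and Fzd1, at 20.1% ± 0.262, did not differ beyond their spread.

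In MGT against MEF the co-receptors Ror2 and Lrp6 rose while their paralogs Ror1 and Lrp5 fell, and in MΔGΔT Ror2 rose, Ror1 and Lrp5 fell and Lrp6 was not called. Ror2 (chr13:53109312-53286124), a receptor tyrosine kinase that binds Wnt5a, rose in both groups, from 52.6, 52.8, 58.9, 56.9 and 53.1 CPM in MEF to 81.9, 82.4, 83.3, 76.2 and 90.2 CPM in MGT and 106, 103, 107, 103 and 104 CPM in MΔGΔT. The 3 groups did not overlap. Its log2 fold changes were 0.59 ± 0.0465 (SE, adjusted p = 2.5e-14) in MGT and 0.93 ± 0.0461 (SE, adjusted p = 9.0e-21) in MΔGΔT, and the difference between these groups, 0.34 ± 0.0432 (SE, adjusted p = 1.1e-08), was 0.082 (adjusted p = 0.184) with RPKM totals. Ror1 (chr4:100095791-100444765), its paralog, stood at 44.1, 38.5, 36.4, 38.3 and 38.3 CPM in MEF, at 14.2, 13.1, 13.4, 15 and 12.8 CPM in MGT and at 28.8, 28.7, 30.8, 28.7 and 26.8 CPM in MΔGΔT. MGT was lowest and MΔGΔT lay between MGT and MEF without overlap, at -1.51 ± 0.0684 (SE, adjusted p = 9.8e-22), -0.44 ± 0.0622 (SE, adjusted p = 4.6e-08) and 1.06 ± 0.0713 (SE, adjusted p = 4.4e-16). Ror1 and its ligand Wnt5a were thus both lowest in MGT.

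Lrp5 (chr19:3584828-3686564) stood at 221, 236, 217, 229.5 and 231 CPM in MEF, at 167, 163, 167, 162 and 163 CPM in MGT and at 162, 164, 159, 153 and 167 CPM in MΔGΔT. It was lower in both transduced groups, which overlapped each other, at -0.46 ± 0.036 (SE, adjusted p = 2.1e-14) and -0.49 ± 0.0363 (SE, adjusted p = 2.5e-15). Lrp6 (chr6:134446476-134566965), the co-receptor that most cells need for the beta-catenin branch, stood at 357, 354, 356, 343 and 376 CPM in MEF, at 489, 471, 457, 479 and 451 CPM in MGT and at 371, 384, 346, 364 and 372 CPM in MΔGΔT. It was high in MGT alone, at 0.39 ± 0.0347 (SE, adjusted p = 7.4e-13), with -0.35 ± 0.0347 (SE, adjusted p = 1.8e-11) in MΔGΔT against MGT. Against MEF, MΔGΔT was at 0.04 ± 0.035 (SE, adjusted p = 0.304), which became -0.20 (adjusted p = 0.000282) with RPKM totals. As a group, 2 of 4 rose and 2 fell in MGT, and 1 rose and 2 fell in MΔGΔT, or 1 and 3 with RPKM totals. Against MGT, 2 rose and 1 fell in MΔGΔT, a split of 2 and 2 with plain library totals or upper-quartile factors and of 1 and 2 with RPKM totals. With only 4 genes, these counts cannot be set apart from the 61.2%, 72.3% and 58.2% of all features called.

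In the R-spondin axis the Lgr receptors and the ligands Rspo1 and Rspo2 fell in both transduced groups, while the ligand Rspo3 rose. All 3 Lgr receptors fell in both groups and were lower in MΔGΔT than in MGT, under each of the 5 scalings. Lgr5 (chr10:115450311-115587780), a stem cell marker in the gut and a WNT target gene, had the largest fall of the 41 genes in MGT. It stood at 288, 241, 254, 251 and 259 CPM in MEF, at 17, 17.5, 13.6, 16.6 and 14.1 CPM in MGT and at 12.2, 11.7, 8.34, 10.3 and 13.3 CPM in MΔGΔT. MEF lay far above every transduced library, and MΔGΔT lay just below MGT. The log2 fold changes were -4.03 ± 0.0712 (SE, adjusted p = 1.8e-25), -4.54 ± 0.0772 (SE, adjusted p = 3.9e-26) and -0.50 ± 0.106 (SE, adjusted p = 2.3e-04). Lgr4, the most widely expressed of the 3, fell from 103 ± 4.91 CPM (SD, n = 5) to 52.7 ± 2.4 CPM in MGT and 47.9 ± 2.27 CPM in MΔGΔT, at -0.96 ± 0.0461 (SE, adjusted p = 5.8e-21) and -1.10 ± 0.0475 (SE, adjusted p = 1.0e-22). The step between the transduced groups, -0.14 ± 0.05 (SE, adjusted p = 0.0159), had an adjusted p of 0.0645 without MΔGΔT replicate 4. Lgr6 fell from 14.3 ± 0.685 to 7.57 ± 1.37 and 3.56 ± 0.205 CPM, at -0.90 ± 0.101 (SE, adjusted p = 3.8e-10) and -1.997 ± 0.12 (SE, adjusted p = 5.8e-18). In shares of their summed RPKM, Lgr5 went from 56.3% ± 1.21 in MEF to 13.2% ± 0.861 and 11.2% ± 1.84, and Lgr4 from 39% ± 1.15 to 77.3% ± 1.59 and 83.5% ± 1.72.

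Rspo2 (chr15:43020794-43170826), an R-spondin of limb and lung mesenchyme, stood at 36.9, 46.7, 40, 39.8 and 43.5 CPM in MEF, at 10.3, 9.54, 6.81, 9.52 and 8.77 CPM in MGT and at 6.33, 3.73, 2.99, 5.86 and 7.84 CPM in MΔGΔT. Both transduced groups lay far below MEF and overlapped each other. On the log2 scale the changes were -2.20 ± 0.131 (SE, adjusted p = 1.7e-11), -2.96 ± 0.149 (SE, adjusted p = 8.2e-13) and -0.76 ± 0.19 (SE, adjusted p = 0.00203). Rspo1 (chr4:124986430-125009099) was already rare in MEF, at 3.03, 2.78, 2.69, 3.26 and 3.57 CPM, and fell to 0.593, 0.675, 0.619, 0.17 and 0.51 CPM in MGT and 0.222, 0.202, 0.103, 0 and 0 CPM in MΔGΔT. Its counts there were 7, 7, 7, 2 and 5 in MGT and 2, 2, 1, 0 and 0 in MΔGΔT, and it fell by 2.56 ± 0.273 (SE, adjusted p = 1.2e-10) and 4.71 ± 0.392 (SE, adjusted p = 1.0e-13) on the log2 scale. Rspo3 (chr10:29452416-29535867), needed for vessel and heart development, rose, from 33.7, 32.8, 34.9, 31.5 and 34.3 CPM in MEF to 38.6, 39.5, 39.2, 38.5 and 42 CPM in MGT and 60.6, 69.7, 63, 61.5 and 64.4 CPM in MΔGΔT. The 3 groups did not overlap, at 0.24 ± 0.0548 (SE, adjusted p = 2.1e-04), 0.93 ± 0.0526 (SE, adjusted p = 6.5e-19) and 0.69 ± 0.0501 (SE, adjusted p = 4.4e-15). Per gene length, Rspo2 and Rspo3 had near-equal shares in MEF, 45.4% ± 2.11 and 48.7% ± 1.75, while Rspo3 made up 83.5% ± 2.34 in MGT and 93.8% ± 2.07 in MΔGΔT.

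Of the ubiquitin ligases that R-spondins oppose, Rnf43 (chr11:87662722-87735539) rose from a very low level, 0.303, 0.671, 0.112, 0.604 and 0.893 CPM in MEF, to 1.44, 1.93, 1.5, 1.19 and 1.53 CPM in MGT and 2.22, 2.02, 2.37, 1.82 and 2.18 CPM in MΔGΔT. Each transduced library was above each MEF library, and the transduced groups overlapped. The fitted log2 fold changes were 1.53 ± 0.315 (SE, adjusted p = 6.0e-05) and 2.01 ± 0.3 (SE, adjusted p = 1.8e-07), from 1 to 8 counts per library in MEF. Znrf3, its paralog, rose in MGT from 24.3 ± 0.832 to 38.1 ± 3.05 CPM, at 0.65 ± 0.0631 (SE, adjusted p = 1.1e-11), and stood at 26 ± 1.54 CPM in MΔGΔT, at 0.097 ± 0.068 (SE, adjusted p = 0.202). In all, 3 of these 8 genes rose and 5 fell in MGT, and 2 rose and 5 fell in MΔGΔT, with the same counts under each scaling. All 8 were thus called in MGT and 1 was not in MΔGΔT, beside 61.2% and 72.3% of all features called. The falls went along with those of the fibroblast and macrophage markers above and of the 5 adipocyte markers, which all fell in both groups, from a summed 1231 to 1332 CPM in MEF to 79.7 to 110.6 CPM in MGT and 77.2 to 90.2 CPM in MΔGΔT. The part of these cell types in the levels of the R-spondin axis was not tested.

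Inside the cell the negative regulators of the pathway went different ways. Axin2 (chr11:108920349-108950783), a scaffold of the complex that degrades beta-catenin and a widely used readout of WNT signaling, stood at 15.2, 13.3, 12.9, 16.9 and 16.1 CPM in MEF, at 23.6, 16.8, 17.9, 18.2 and 19.1 CPM in MGT and at 49.9, 47.3, 51.6, 51.7 and 50.6 CPM in MΔGΔT. The MΔGΔT libraries lay far above all others, while the lowest MGT library was within the MEF range. Fold changes on the log2 scale were 0.37 ± 0.0868 (SE, adjusted p = 3.1e-04), 1.76 ± 0.0769 (SE, adjusted p = 1.5e-22) and 1.39 ± 0.0712 (SE, adjusted p = 9.7e-20). Nkd1 (chr8:88521354-88594884), which dampens the signal at Dishevelled and is itself a target of the pathway, stood at 29.6, 31.1, 28.3, 28.4 and 29.2 CPM in MEF, at 18, 14.8, 16.3, 15.7 and 15.8 CPM in MGT and at 12.7, 12.3, 11.9, 12.4 and 13.6 CPM in MΔGΔT. It fell in steps without overlap, by 0.86 ± 0.0675 (SE, adjusted p = 2.5e-14) in MGT and 1.22 ± 0.0724 (SE, adjusted p = 3.1e-18) in MΔGΔT on the log2 scale.

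Axin1 (chr17:26138688-26195811), the constitutive paralog of Axin2, stood at 61.4, 68.1, 64.1, 68 and 60.9 CPM in MEF, at 61.9, 65.4, 62.2, 61.4 and 60.4 CPM in MGT and at 56.5, 52.2, 51.8, 53.8 and 54 CPM in MΔGΔT. It was lower in MΔGΔT than in either other group without overlap, at -0.27 ± 0.0476 (SE, adjusted p = 5.0e-06) against MEF and -0.22 ± 0.0469 (SE, adjusted p = 1.5e-04) against MGT, while MGT and MEF overlapped at -0.051 ± 0.046 (SE, adjusted p = 0.349). Tcf7l2 (chr19:55741820-55933654), a nuclear partner of beta-catenin, stood at 57.8, 61.5, 53.7, 57 and 65.5 CPM in MEF, at 70.4, 68, 67.8, 67.8 and 68.3 CPM in MGT and at 38.7, 35.6, 35.9, 38.2 and 34.5 CPM in MΔGΔT. MGT was highest and MΔGΔT lowest, without overlap, at 0.21 ± 0.0489 (SE, adjusted p = 2.8e-04), -0.69 ± 0.0537 (SE, adjusted p = 1.3e-14) and -0.90 ± 0.0519 (SE, adjusted p = 3.8e-18). Tcf7l1, a relative that mostly represses, stood at 38.9 ± 4.93 CPM (SD, n = 5), 39.9 ± 1.75 CPM and 44.6 ± 2.34 CPM. Its rise in MΔGΔT, 0.20 ± 0.0647 (SE, adjusted p = 0.00504), was lost with plain library totals (adjusted p = 0.135), upper-quartile factors (adjusted p = 0.0976) and RPKM totals, where it was -0.035, and without MEF replicate 2 (0.13, adjusted p = 0.0561). Nkd2 stood at 18.3 ± 2.32, 19.4 ± 1.14 and 20.6 ± 1.08 CPM and was not called, but in MΔGΔT against MEF it passed without MEF replicate 1 (0.24, adjusted p = 0.00564) and without MΔGΔT replicate 2 (0.19, adjusted p = 0.0416). Lef1 had 10, 3, 6, 5 and 5 counts in MEF, 11, 3, 8, 3 and 8 in MGT and 7, 8, 12, 11 and 8 in MΔGΔT and was not tested. Of the 6 intracellular genes tested, 2 rose and 1 fell in MGT and 2 rose and 3 fell in MΔGΔT, or 1 and 3 under the scalings by plain totals, upper quartile and RPKM totals. Between MΔGΔT and MGT the counts were 2 and 3, and 1 and 3 under those 3 scalings. Those not called numbered 3, 1 and 1 of the 6, where 61.2%, 72.3% and 58.2% of all features were called. The count in MGT was thus not above the background.

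A set of 19 further genes that are widely used as WNT targets was also split. In MGT 8 rose and 9 fell against MEF, and in MΔGΔT 6 rose and 12 fell, with median log2 fold changes of -0.073 and -0.84. These are 89.5% and 94.7% of the set, beside 61.2% and 72.3% of all features. The rises in MΔGΔT included the matricellular gene Wisp1, from 459.8 ± 17.6 CPM (SD, n = 5) in MEF to 562 ± 21.3 CPM in MGT and 1151 ± 29.3 CPM in MΔGΔT, at 1.32 ± 0.0336 on the log2 scale (SE) against MEF. The hyaluronan receptor Cd44 went from 187 ± 9.23 to 201 ± 6.04 and 375 ± 12.5 CPM, at 1.00 ± 0.0374. The falls included the guidance receptor Ephb2, at -1.26 ± 0.0404 in MΔGΔT and -0.35 ± 0.0379 in MGT, and the transcriptional inhibitor Id2, at -2.75 ± 0.0791 and -1.97 ± 0.07. Many of these genes are known to answer to other pathways as well. Against MGT, 4 were higher and 13 lower in MΔGΔT, which is 89.5% beside 58.2% of all features.

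The comparison of MΔGΔT with MGT, which sets the 2 transduced groups side by side, included 5 genes called in opposite directions against MEF. How common such opposite calls were among all features was not counted. Wnt5b, Wnt2, Fzd4 and Tcf7l2 were above MEF in MGT and below it in MΔGΔT, and Wnt5a was the reverse. The difference itself passed the test in each of the 5, from -1.71 for Wnt2 and -1.69 for Fzd4 to 1.04 for Wnt5a on the log2 scale, with no overlap between the 5 and 5 libraries. The 2 comparisons with MEF share their control libraries, so the signs against MEF are not independent of each other. Of the genes called in the same direction against MEF, Wif1 (2.59), Axin2 (1.39) and Rspo3 (0.69) were further up in MΔGΔT, and Sfrp1 (-1.26) and Lgr6 (-1.10) further down. Fzd6 (-0.99) and Wnt16 (-0.25) were the reverse, with the higher level in MGT. Rspo1, with 28 counts in all MGT libraries and 5 in all MΔGΔT libraries, passed the filter on low counts through its MEF libraries, and a fit of the transduced groups alone left it out, so its difference between them is not read here. Endothelial markers, cells in which Fzd4 is known to act, summed to 199.0 to 215.4 CPM in MEF, 206.1 to 226.7 CPM in MGT and 539.8 to 579.9 CPM in MΔGΔT, and Flt1 alone made up 486 ± 18.8 CPM (SD, n = 5) of the last. Of the 7 tested, 2 rose and 4 fell in MGT and 2 rose and 3 fell in MΔGΔT. The called shares were 85.7% and 71.4%, beside 61.2% and 72.3% of all features. The part of endothelial cells in the Fzd4 level was not tested.

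**Figure D4:**
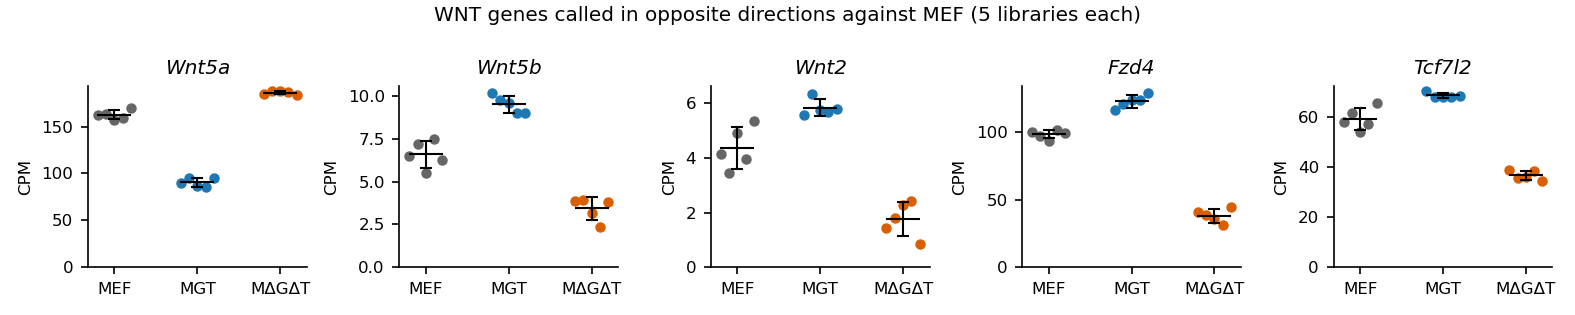
CPM of the 5 WNT genes called in opposite directions against MEF, with 1 point per library and the mean and SD of each group of 5 as lines. Wnt5a is lowest in MGT and highest in MΔGΔT, while Wnt5b, Wnt2, Fzd4 and Tcf7l2 are highest in MGT and lowest in MΔGΔT, and each axis starts at 0.

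Other parts of the pathway were described from gene lists outside the 45. Among 10 tested extracellular antagonists and co-receptors, 5 rose and 4 fell in MGT and 4 rose and 5 fell in MΔGΔT, which is 90% in each, beside 61.2% and 72.3% of all features. Tspan12, the partner of Fzd4 in Norrin signaling, rose from 5.97 ± 1.11 CPM (SD, n = 5) to 34.1 ± 0.916 CPM in MGT and 77.5 ± 3.32 CPM in MΔGΔT, at 2.51 ± 0.0834 and 3.69 ± 0.0755 on the log2 scale (SE). It was thus highest in the group in which Fzd4 was lowest. Lrp4, a receptor for sclerostin and agrin, rose from 30.2 ± 0.956 to 138 ± 8.35 and 205 ± 9.42 CPM, and Kremen1, a Dkk co-receptor, from 73.1 ± 2.48 to 108 ± 2.52 and 133 ± 4.74 CPM. Kremen1 therefore rose while Dkk2 fell. Apcdd1, a membrane-bound inhibitor induced by the pathway, fell from 19.7 ± 2.41 to 8.9 ± 0.837 and 4.73 ± 0.296 CPM.

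Of 15 genes for WNT secretion and processing, 6 rose and 7 fell in MGT and 6 and 6 in MΔGΔT, or 4 and 9 with RPKM totals. The called shares were 86.7% and 80%, beside 61.2% and 72.3% of all features. Trabd2b, a membrane protease that cleaves WNT ligands and so inhibits them, rose from 12.4 ± 1.32 CPM (SD, n = 5) to 50.1 ± 1.77 CPM in MGT and 53.7 ± 1.9 CPM in MΔGΔT. The glypicans parted, as Gpc3 rose from 114 ± 6.29 to 363 ± 13 and 238 ± 14.4 CPM while Gpc6 fell from 163 ± 7.84 to 65.5 ± 4.01 and 42 ± 4.04 CPM. Adgra2, a co-activator of Wnt7 signaling, fell by 1.24 ± 0.0387 (SE) in MΔGΔT and 0.50 ± 0.0375 in MGT on the log2 scale. Against MGT, 5 of the 15 were higher and 4 lower in MΔGΔT, and 1 and 8 with RPKM totals or 2 and 7 with plain totals, and the 60% called was near the 58.2% of all features.

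Of 19 genes of the destruction complex and beta-catenin, 7 rose and 4 fell in MGT, or 11 and 1 with plain totals. The share called in MGT, 57.9%, was near the 61.2% of all features, and that in MΔGΔT was 89.5%, beside 72.3%. In MΔGΔT 12 rose and 5 fell, but this direction depended on scaling, with 8 and 6 by plain totals or upper quartile and 5 and 9 with RPKM totals. Between MΔGΔT and MGT it was 10 and 5, and 2 and 10 with RPKM totals, and the share called was 78.9%, beside 58.2% of all features. The changes were small, among them Tnks, the enzyme that marks Axin for degradation, at 0.60 ± 0.0343 in MΔGΔT (log2, SE), the kinase Csnk1g1 at 0.53 ± 0.0452, Dvl1 at 0.73 ± 0.051 and its paralog Dvl2 at -0.64 ± 0.0584. In the polarity and calcium branch 12 of 24 rose and 6 fell in MGT, and 14 rose and 5 fell in MΔGΔT, or 9 and 9 with RPKM totals. The called shares were 75% and 79.2%, beside 61.2% and 72.3% of all features, so the count in MΔGΔT was near the background. Prickle1, a core polarity protein, was at 0.85 ± 0.043 in MGT and 0.76 ± 0.0437 in MΔGΔT, the formin Daam2 at 0.89 ± 0.0551 and 0.82 ± 0.0562, and the kinases Mapk8 and Nlk at 1.24 ± 0.0578 and 1.01 ± 0.0693 in MΔGΔT. Against MGT the split in this branch was 9 and 3, and 4 and 15 with RPKM totals, with 50% called beside 58.2% of all features.

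Of 18 nuclear cofactors, 9 rose and 5 fell in MGT and 9 rose and 8 fell in MΔGΔT, or 5 and 9 with RPKM totals, and against MGT 4 were higher and 6 lower, or 1 and 13. The called shares were 77.8%, 94.4% and 55.6%, beside 61.2%, 72.3% and 58.2% of all features. Pygo1, a beta-catenin co-activator, fell from 37.3 ± 1.7 CPM (SD, n = 5) to 26.2 ± 1.61 CPM in MGT and 17 ± 0.848 CPM in MΔGΔT, and Sox9, which can oppose beta-catenin, from 18.8 ± 1.59 to 11 ± 1.27 and 7.1 ± 0.802 CPM. The co-repressor Tle3 rose to 231 ± 5.99 CPM in MΔGΔT from 134 ± 7.7 CPM in MEF, and Cdc73 to 111 ± 5.47 CPM from 68.7 ± 5.97 CPM. Neural markers, looked at because several WNT genes serve in nerve tissue, summed to 231.2 to 266.0 CPM in MEF and 756.7 to 829.8 CPM in MΔGΔT, and 1 of 6 tested rose and 5 fell in both groups, the riser being Nes at 738 ± 29.6 CPM in MΔGΔT. These calls are 100% in each group, beside 61.2% and 72.3% of all features.

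Read assignment limits some of these values. By the GENCODE M21 annotation on GRCm38, 18 of the 45 genes overlap a gene on the other strand, among them Axin2, Sfrp2, Fzd6, Lgr5, Wnt5a, Wnt5b and Rspo3, and 9 overlap a gene on their own strand, among them Nkd1, Ror1, Rnf43, Rspo3 and Tcf7l2. Reads of such pairs cannot be told apart without knowing how the counting was done.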

How the data were processed

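RNA-seq was carried out on 15 libraries, 5 in each of 3 groups, after ribosomal RNA depletion and with strand-preserving library synthesis, per the labels' protocols. The reads were handled against mm10, per the submitters' processing notes, while mapper, counting tool and strand setting were not given in the sources used here. The authors deposited 1 table of 14091 features with 4 values per library. One, called expression value per the file headers, held whole-number counts. Another, a deposited normalized signal, was the count times 1 constant per library, to within 0.027%. A deposited transformed value equalled the log2 of the normalized signal plus 1 to within 0.005. The last is RPKM, per the file headers, used here for shares within a gene family. For 21 features, holding 0.258% of all counts, the symbol had become a date, and these entered library sizes and tests but were not named.

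The counts were tested in edgeR 4.0.16 (R 4.3.3), with low counts removed by filterByExpr, TMM factors, and a robust quasi-likelihood fit of all 15 libraries with group as the only term (12 residual degrees of freedom). P was adjusted by Benjamini-Hochberg over the 13328 features left, with a threshold of 0.05. CPM uses TMM-adjusted library sizes, and each SE was derived from the fold change and its F statistic. The total per library was 8.213 to 11.128 mega-counts, and depth limits the genes near 1 CPM. In simulated counts for MGT against MEF the fit recovered 59.2% of changes of 1.25-fold and 98% of changes of 2-fold, with 4.6% of the calls false. The share of false calls was 4.92% for MΔGΔT against MEF and 7.82% for MΔGΔT against MGT, above the nominal 5%. In each simulation 49 or 50 genes were changed at each fold size, of 13159 or more simulated, and all others kept equal means. In the real data 58.2% to 72.3% of features were called. The simulated rates therefore do not carry over to these data and do not bear on the choice of scaling.

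The members and the gene lists were chosen with earlier results of these data known. Every member is accounted for. Given library by library are Dkk2, Sfrp2, Axin2 and, per role, up to 4 members with the largest absolute log2 fold change and a mean above 1 CPM in at least 1 group. Wnt5a, Wnt16 and Rspo3 were added to these after their values were seen. Of each other list, up to 4 genes with the smallest adjusted p in MΔGΔT against MEF are eligible to be named, along with genes that mark a summed level. Alternatives were other scalings, filters, DESeq2 1.42.0, fits of 2 groups, left-out libraries and a block for the replicate number. Libraries with the same number had correlations of -0.103 to 0.0615 between their deviations from the group means, so the numbers were not taken to pair them. No 2 libraries of a group agreed within sampling noise, with a chi-square per degree of freedom of 1.61 to 7.43.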

Additional observations from a re-analysis of the deposited data

Results flagged for a closer look

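In 6 of 123 groups of 5 libraries, 1 library stood apart from the other 4 by a gap of more than 0.71 of the range of the group. Chance gives this in about 1 in 20 groups. It was the highest library each time, at 20.32 CPM for Fzd3 in MGT, 44.07 CPM for Ror1 in MEF, 70.41 CPM for Tcf7l2 in MGT, 2.575 CPM for Wnt11 in MΔGΔT, 6.363 CPM for Wnt2 in MGT and 2.931 CPM for Wnt2b in MΔGΔT.

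In 5 genes MGT and MΔGΔT differed from MEF in opposite directions, and the difference between them was tested. The share of all features that did so was not counted. MΔGΔT against MGT had a log2 fold change of -1.687 for Fzd4, -0.9031 for Tcf7l2, -1.705 for Wnt2, 1.039 for Wnt5a and -1.471 for Wnt5b, each past the threshold in edgeR's test over all features. The sign of Wnt5a in MΔGΔT against MEF turned with RPKM totals, which leaves 4 genes with opposite directions under each scaling tried.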

How the results depend on the processing

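Of 2951 recomputed fold changes of the 41 tested genes, 2873 kept their direction and their side of the threshold, 36 changed sign, 27 passed and 15 missed the threshold they had missed or passed before. The counts of WNT genes called stayed within 1.5 times of those reported under each alternative, and over the left-out libraries they ranged from 32 to 34 in MGT against MEF, 34 to 36 in MΔGΔT against MEF and 30 to 32 in MΔGΔT against MGT. With the replicate block they were 33, 35 and 31, and the block changed no call of a WNT gene. DESeq2, run without that filter on low counts and counted over all 45 genes, called 35, 36 and 31. Among the 41 tested genes it added 0 calls and lost that of Tcf7l1 in MΔGΔT against MGT. Over all features, plain library totals gave 2436 higher and 6199 lower in MΔGΔT against MGT. RPKM totals gave 1873 and 7278 there, and 2928 higher in MΔGΔT against MEF. The search with the flanking base took the promoter matches from 2 to 0. That search also left out the form CTTTGTT, which was the form matched in Fzd7, so it changed more than the flanking base.

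Sign changes, all on the log2 scale and none of a called value to a called one, were these. With plain library totals they were 0.026 for Axin1, 0.056 for Fzd1 and 0.068 for Fzd2 in MGT against MEF, -0.056 for Lrp6 in MΔGΔT against MEF, and -0.14 for Fzd10, -0.087 for Nkd2, -0.014 for Tcf7l1, -0.12 for Wnt11 and -0.13 for Wnt9a in MΔGΔT against MGT. With upper-quartile factors they were -0.044 for Lrp6 in MΔGΔT against MEF and -0.030 for Fzd10, -0.011 for Wnt11 and -0.015 for Wnt9a in MΔGΔT against MGT. With RPKM totals they were 0.0082 for Fzd2 in MGT against MEF, then -0.20 for Lrp6, -0.069 for Nkd2, -0.035 for Tcf7l1, -0.040 for Wnt5a, -0.096 for Wnt9a and -0.14 for Znrf3 in MΔGΔT against MEF, and -0.23 for Fzd10, -0.17 for Nkd2, -0.095 for Tcf7l1, -0.21 for Wnt11 and -0.21 for Wnt9a in MΔGΔT against MGT. DESeq2 gave 0.00077 for Fzd2 in MGT against MEF. The scalings shift all features together, and causes beyond that were not tested. Over the left-out libraries the values ranged from -0.03 to 0.017 for Fzd2 in MGT against MEF, -0.029 to 0.10 for Tcf7l1 in MGT against MEF, -0.19 to 0.19 for Fzd10 in MΔGΔT against MGT, -0.28 to 0.13 for Sfrp4 in MΔGΔT against MGT and -0.12 to 0.13 for Wnt11 in MΔGΔT against MGT.

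Of the genes near the threshold in MΔGΔT against MGT, Tcf7l1 missed it without any of 4 libraries (MGT replicates 2 and 4, MΔGΔT replicates 1 and 5) and in DESeq2 (adjusted p = 0.0562) and with upper-quartile factors (adjusted p = 0.176), Lgr4 missed it without MΔGΔT replicate 4, and Fzd3 passed it without MEF replicate 1 (adjusted p = 0.0495) or MΔGΔT replicate 1 (adjusted p = 0.0327), in a fit of the 2 groups (adjusted p = 0.0308) and with plain, upper-quartile and RPKM scaling. Rnf43 passed it without MGT replicate 2 (0.58, adjusted p = 0.0423). Fzd1 and Lrp5 passed as lower under those 3 scalings, and Wnt2b with plain and RPKM totals. Rspo1 could not be compared between MGT and MΔGΔT in a fit of these 2 groups alone, where it had too few counts.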
